A study of Homo sapiens with 14 samples.

Results

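The peaks described here are those of heat shock factor 1 (HSF1) in K562 cells that were not heated, in cycling and in mitotic cells. K562 is a human erythroleukemia line. Every peak of the 2 deposited HSF1 lists was taken, with no filter on fold or p-value: 4718 peaks of freely cycling cells and 4534 peaks of cells arrested in mitosis, together 9252 of the 117699 peaks in 12 lists. Both cultures were kept at 37 °C. Both immunoprecipitations used the same anti-HSF1 antibody (SPA-901), and each library was pooled from 10 immunoprecipitations. The agent that arrested the cells is not given in the sources used here. The comparison groups were libraries made with non-specific IgG from non-heated cycling and non-heated mitotic cells, HSF1 libraries of both cell states after 30 min at 42 °C, and the HSF2 and heated IgG libraries. The input chromatin that served as background was labelled as heat-treated in both cell states. Each group held 1 library, so no test of cell state was possible. All intervals below are 95% intervals that cover counting error only. Coordinates are hg19.

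HSF1 is the transcription factor that switches on chaperone genes under stress. In unstressed cells most of it is held inactive by chaperones, and upon protein damage it assembles into a trimer that binds heat shock elements, which are inverted repeats of GAA in promoters of chaperone genes. Chromosomes are condensed in mitosis, transcription is largely shut down and many sequence-specific factors leave the chromatin. The study compared cycling with mitotic cells to see where HSF1 and its relative HSF2 sit in each state.

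Without heat, most HSF1 peaks were called in 1 cell state only, and the sites that HSF1 occupied most strongly after heat were a small part of both lists. Of the cycling peaks, 886 (18.8%, interval 17.7 to 19.9) overlapped a mitotic peak by at least 1 bp. Of the mitotic peaks, 1086 (24.0%, interval 22.7 to 25.2) overlapped a cycling peak. Of all 6447 heated cycling HSF1 peaks, 428 had an HSF1 peak in both states without heat. Of the 285 with a fold of at least 10, 7 did, and the same 7 were among the 40 with a fold of at least 20. They included the promoters of HSPA1A, HSPA1B, HSPA8 and of HSPD1 with HSPE1.

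The sequences below show letters that match the heat shock element at promoters of sites called in both states. The deposited lists name no genes, so gene names at positions are background knowledge. Promoters are the 250 bases before the start of the gene in RefSeq (GRCh38.p14), and all 8 genes looked up were matched by symbol. Letters in capitals mark matches to GAANNTTC or TTCNNGAA, and to long forms, in which 1 further GAA or TTC unit continues the alternation after 2 bases, so that each long form contains both short ones. Both strands were searched. The promoter of HSPA1B, which encodes an inducible HSP70 chaperone (plus strand), held 1 short match, beginning at position -105 from the start. The promoter of HSPA8, which encodes the constitutive HSP70 relative (minus strand), held 2 long matches. HSPD1, which encodes the mitochondrial chaperonin HSP60 (minus strand), had a pair of overlapping long matches in 1 of its RefSeq windows, of which 30 bases are shown. TCP1, which encodes a subunit of the cytosolic chaperonin (minus strand), had 1 short match, again shown with 30 bases. The windows of HSPE1, the other window of HSPD1 and 2 of the 3 windows of MRPL18, all at these sites, held no match.
HSPA1B: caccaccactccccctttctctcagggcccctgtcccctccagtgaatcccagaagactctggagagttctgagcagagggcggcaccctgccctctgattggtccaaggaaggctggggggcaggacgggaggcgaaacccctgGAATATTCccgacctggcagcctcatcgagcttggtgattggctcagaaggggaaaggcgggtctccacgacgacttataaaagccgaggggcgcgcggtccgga
HSPA8: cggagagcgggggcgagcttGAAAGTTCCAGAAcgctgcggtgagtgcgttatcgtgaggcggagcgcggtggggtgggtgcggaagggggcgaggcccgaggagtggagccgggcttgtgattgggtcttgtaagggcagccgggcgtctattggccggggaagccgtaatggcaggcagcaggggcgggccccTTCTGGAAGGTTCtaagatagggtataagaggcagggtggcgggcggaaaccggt
HSPD1: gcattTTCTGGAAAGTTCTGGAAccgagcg
TCP1: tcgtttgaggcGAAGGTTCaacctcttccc

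Among all 35116 RefSeq promoters of the same length, 4067 (11.6%) held a short form and 155 (0.441%) a long form. A match describes letters in the window and not a bound site. HSPA1A, the near-identical neighbour of HSPA1B, has a promoter that shares a run of 49 bases with that of HSPA1B. Sequenced tags were 36 bases long per the file headers, so tags inside that run could not be told apart between the 2 genes.

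The 2 lists differed in depth and in how they were made. A peak is a stretch where tags exceed the local input, and its level is given here as tags in the peak per 1000000 kept tags of its library (CPM). The cycling library had 14446547 kept tags of a total of 14446548 in its file header. The mitotic library had 6164898 kept tags, which were 66.4% of its header total of 9290763. Up to 2 tags per position were kept in the cycling library and 1 in the mitotic one. The smallest cycling peak had 12 tags (0.831 CPM) and the smallest mitotic peak 8 tags (1.30 CPM). The median peak had 14 tags (0.969 CPM) in cycling and 9 tags (1.46 CPM) in mitotic cells, so typical peaks of both lists lay close to the smallest size called. Peaks had similar lengths, with medians of 615 bp and 602 bp, and covered 4531 kb and 4115 kb.

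The deposited fold over input, which is the authors' value for each peak, was low in both lists. Its median was 2.29 in cycling cells, where 47 peaks had a fold of at least 5, and 1.02 in mitotic cells, where 3 did. The highest fold was 11.07 in cycling and 6.71 in mitotic cells. In the mitotic list 2197 peaks (48.5%) had a fold below 1. The fold compares tags without equal scaling of the 2 libraries, and input had 2.41 times the tags of the cycling and 6.22 times those of the mitotic HSF1 library. Scaled to equal depth, the medians were 5.52 and 6.34. Folds of the 2 states were therefore not set against each other.

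At the 285 sites of heated cycling cells with a fold of at least 10, HSF1 peaks without heat were found at 16 sites in cycling cells (5.61%, interval 3.48 to 8.92) and at 14 in mitotic cells (4.91%, interval 2.95 to 8.08). The same overlap over all 6447 heated cycling HSF1 peaks was 11.7% for cycling and 9.96% for mitotic peaks, above the shares at a fold of at least 10 and below those at a fold of at least 20, which were 25% and 17.5%. Over all 6447 peaks, IgG of cycling cells overlapped 756, against 752 for HSF1 of cycling cells. IgG of mitotic cells overlapped 340 of them (5.27%), against 642 for HSF1 of mitotic cells. At the 285 strong sites IgG overlapped 6 in cycling and 0 in mitotic cells. The smallest mitotic IgG peak had 6 tags (2.90 CPM), against a median of 1.62 CPM for mitotic HSF1 peaks at these sites. The 0 therefore does not show absence of IgG signal. The 7 sites with peaks in both states were joined by 9 with a cycling peak alone and 7 with a mitotic peak alone, and 262 had neither.

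At most of these sites the summits lay close to those of heated cells. The summit, which is the base of highest tag density, lay at a median of 33.0 bp from the heated summit for the cycling peaks, and 13 of 16 lay within 100 bp. For the mitotic peaks the median was 87.5 bp, and 10 of 14 lay within 100 bp. The 6 IgG peaks of cycling cells had a median of 458 bp, with 1 within 100 bp. Of the 40 sites with a fold of at least 20 after heat, 10 had a cycling and 7 a mitotic peak, and all 7 had both. IgG peaks lay at 3 of the 40 in cycling cells, with 0 summits within 100 bp. They lay at 0 of the 40 in mitotic cells, where no IgG peak under 2.90 CPM was called. By strength alone, the 20 strongest heated sites held 8 cycling and 6 mitotic peaks, and 12 had neither. IgG had 0 in each state, with the same limit in mitotic cells.

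HSPA1B lies at the site of highest heat fold among those with a member (chr6:31794357-31797922). It had 47 tags (3.25 CPM, interval 2.39 to 4.33) in cycling cells and 34 tags (5.52 CPM, interval 3.82 to 7.71) in mitotic cells. The ratio of mitotic to cycling CPM was 1.70, with an exact binomial interval of 1.06 to 2.69. The mitotic peak was narrower, 798 bp against 1164 bp, and per kilobase the ratio was 2.47 (1.54 to 3.93). After heat the called peaks widened to 3566 bp in cycling and 3023 bp in mitotic cells and held 35.9 CPM and 24.6 CPM. Per kilobase these were 3.60 and 1.18 times the values without heat, against 11 and 4.47 times for the sums. No IgG peak of non-heated cells lay there, but the heated IgG libraries had 5.42 CPM in cycling and 4.84 CPM in mitotic cells. These are sums over wider called peaks than those of non-heated HSF1, from 31794188 to 31796638 and from 31794930 to 31797447. The mitotic peak at HSPA1B (fold 5.34) was the highest fold in that list among peaks free of IgG of the same cells.

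HSPA1A, which encodes the other inducible HSP70 and shares its upstream region with HSPA1L, lies at chr6:31782105-31785960. It had 27 tags in cycling cells (1.87 CPM, interval 1.23 to 2.72) and 12 tags in mitotic cells (1.95 CPM, interval 1.01 to 3.40). The 2 states overlapped, with a ratio of 1.04 (0.48 to 2.13). Heated peaks spanned 3856 bp in cycling and 2133 bp in mitotic cells, against 884 bp and 706 bp without heat. Per kilobase of called peak, the heated level was 3.94 times that without heat in cycling and 2.90 times in mitotic cells, against 17.2 and 8.76 times for the sums. Heated IgG had 4.81 CPM in cycling and 4.62 CPM in mitotic cells here, in peaks from 31783042 to 31785393 and from 31782688 to 31785373. These are sums over wider called peaks than those of non-heated HSF1, so the levels were not set against each other.

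HSPD1 and HSPE1 encode the mitochondrial HSP60 and its cofactor HSP10 and are read in opposite directions from a shared region at chr2:198364229-198365255. The cycling peak had 20 tags (1.38 CPM, interval 0.846 to 2.14) and the mitotic peak 12 tags (1.95 CPM, interval 1.01 to 3.40). Their ratio was 1.41 (0.63 to 3.02), which includes equal levels. After heat the site had 9.62 CPM in cycling and 9.48 CPM in mitotic cells. It carried a peak in all 8 HSF1 and HSF2 lists and in none of the 4 IgG lists.

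HSPA8 (chr11:122932364-122933595) was the other site with a peak in all 8 HSF lists and no IgG list. It had 14 tags in cycling cells (0.969 CPM, interval 0.530 to 1.63) and 15 tags in mitotic cells (2.43 CPM, interval 1.36 to 4.01). The mitotic to cycling ratio of the sums was 2.51 (1.13 to 5.61). The called peaks were 816 bp long in mitotic and 483 bp in cycling cells, and per kilobase the ratio was 1.49 (0.67 to 3.32), which includes equal levels. Per kilobase the heated level was 3.14 times that without heat in cycling and 1.48 times in mitotic cells.

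TCP1 and its neighbour MRPL18, a mitochondrial ribosomal protein gene, lie at chr6:160210392-160211604. The cycling peak had 17 tags (1.18 CPM) and the mitotic peak 8 (1.30 CPM), at the smallest size called. The ratio was 1.10 (0.41 to 2.70). The cycling summit lay 47 bp and the mitotic summit 408 bp from the heated summit. A site at chr11:286948-288156, left unnamed here, had 31 tags (2.15 CPM) in cycling and 9 tags (1.46 CPM) in mitotic cells, with a ratio of 0.68 (0.28 to 1.46).

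**Figure D1:**
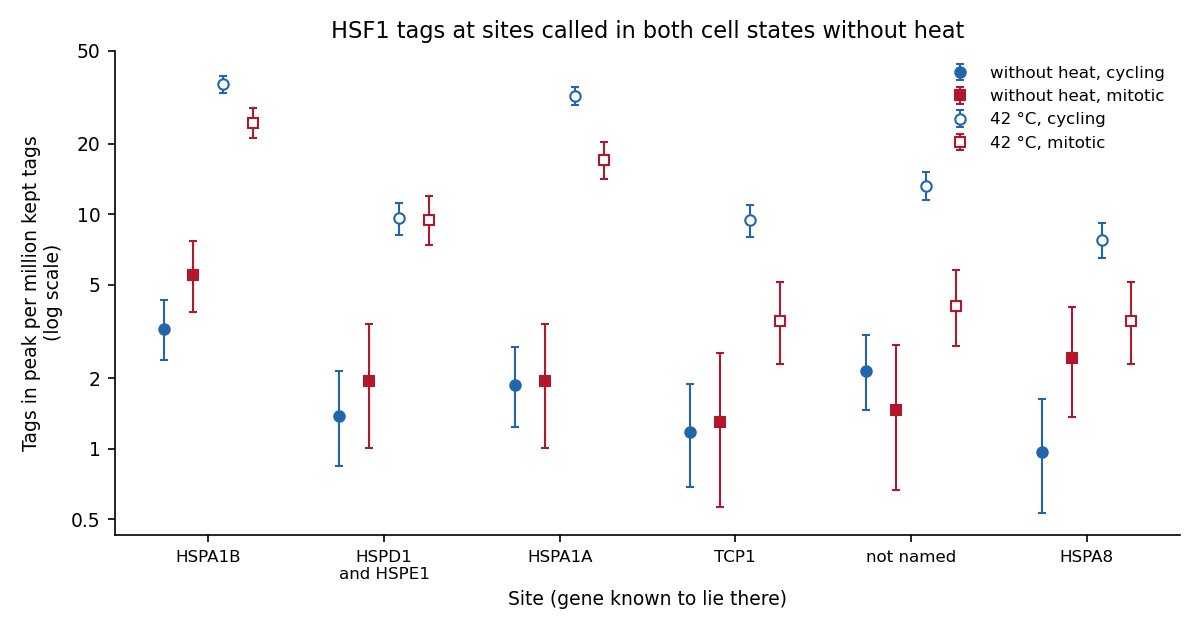
HSF1 tags per 1000000 kept tags (log scale) at 6 sites called in both cell states without heat, in the 4 HSF1 libraries. Points are single libraries with exact Poisson 95% intervals. Non-heated levels lay between 0.969 and 5.52 CPM, and each heated cycling point lies above the non-heated one. Sums are over the peaks called in each library, whose widths differ: per kilobase, heated cycling levels were 3.14 to 6.31 times those without heat.

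Over all 7 sites, the interval of the mitotic to cycling ratio without heat included 1 at 5 and lay above 1 at 2, HSPA1B and HSPA8. Per kilobase of called peak it included 1 at 6 and lay above 1 at HSPA1B alone. These intervals assume that kept tags put both libraries on 1 scale. With total in place of kept tags, the median ratio over the 6 of the 20 strongest sites called in both states went from 1.25 to 0.832. Its direction thus depended on the scale. Of the header totals, 100% were kept in cycling and 66.4% in mitotic cells, and whether the 2 totals are of 1 kind was not tested. The deposited FDR of the cycling peaks at the 6 sites described ran from 5.13% to 10.19%, where the highest value in that list was 10.41%, whereas the mitotic ones ran from 0.00% to 1.91%.

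The 9 sites with a cycling peak alone were weaker, at 0.831 to 1.38 CPM. Those of highest heat fold were chr19:1354035-1355052 (13 tags, 0.900 CPM), chr19:5863588-5865998 (14 tags, 0.969 CPM) and chr21:45147830-45149007 (12 tags, 0.831 CPM). Each had a summit within 34 bp of the heated one. A level of 0.900 CPM is below the 1.30 CPM of the smallest mitotic peak. Over the whole list, 104 cycling peaks below that level had a mitotic peak all the same, and the part of depth at these sites was not tested. The site chr15:44580143-44581056 (17 tags, 1.18 CPM) carried peaks in HSF1 lists alone: both heated ones and cycling without heat.

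Of the 7 sites with a mitotic peak alone, 6 had 8 to 10 tags (1.30 to 1.62 CPM). The remaining one, chr22:21219164-21222721, had 34 tags (5.52 CPM) with a fold of 1.03, and heated mitotic IgG had 14.8 CPM there. At chr8:27325694-27326686 the mitotic peak had 10 tags and its summit lay 24 bp from the heated one. The summit at chr21:40823053-40824310 lay 422 bp away. All 7 levels lie above the smallest cycling peak (0.831 CPM), and why no cycling peak was called there was not tested.

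Read over the whole lists, overlap followed the level of the peak. Of cycling peaks under 1 CPM, 59 of 2602 (2.27%) overlapped a mitotic peak. The share was 15.1% at 1 to 2 CPM, 57.3% at 2 to 5 CPM and 80.9% (284 of 351) at 5 CPM or more. The share with an IgG peak of cycling cells rose alongside, from 5.61% through 22% and 52.4% to 65.8%. In the mitotic list the share with a cycling peak went from 15.5% at 1 to 2 CPM to 43.5% at 5 CPM or more. The share with an IgG peak of mitotic cells went from 2.86% to 82.2%, and no such IgG peak had less than 2.90 CPM. Strong peaks of either list were thus mostly in the IgG list of the same cells as well.

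**Figure D2:**
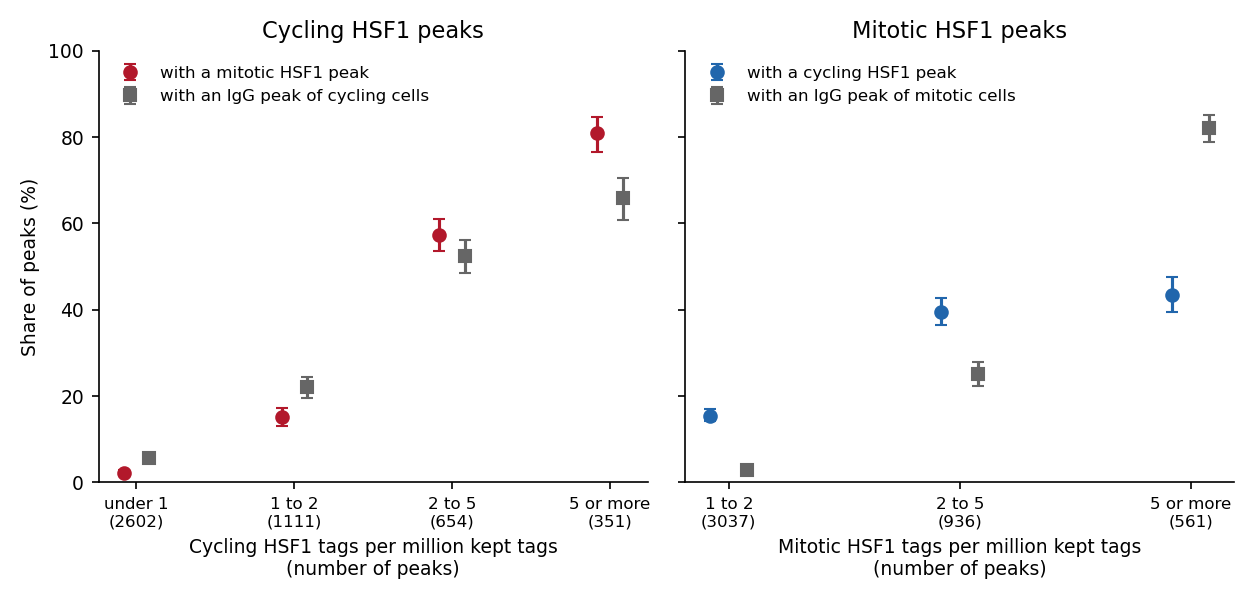
Share of HSF1 peaks (%) that overlapped an HSF1 peak of the other cell state or an IgG peak of the same cells, by tags per 1000000 kept tags, for the cycling (left) and mitotic (right) list. Bars are Wilson 95% intervals and numbers of peaks stand in parentheses. For cycling peaks both shares climb together, from 2.27% to 80.9% and from 5.61% to 65.8%.

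Levels of each list were also scaled to the depth of the other. Scaled to mitotic depth, 3260 cycling peaks (69.1%) would have fewer than the 8 tags of the smallest mitotic peak, and these include 3156 of the 3832 cycling peaks without a mitotic partner. The other 104 of the 3260 overlapped a mitotic peak. The remaining 676 unshared peaks would have 8 tags or more, and the part of depth was not tested. Restricted to cycling peaks of at least the lowest mitotic CPM, 782 of 1458 (53.6%, interval 51.1 to 56.2) overlapped a mitotic peak, and 264 of 732 (36.1%) among those free of IgG of the same cells. In the other direction, all 4534 mitotic peaks would have at least 12 tags at cycling depth, with a median of 21.1, and 3448 of them had no cycling peak.

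IgG peaks of the same cells overlapped 964 cycling HSF1 peaks (20.4%) and 783 mitotic ones (17.3%). These held 43.9% and 62.1% of the tags in their lists. Peaks that overlapped IgG more often had a partner in the other state. In cycling cells 563 of 964 with IgG (58.4%) had a mitotic peak, against 323 of 3754 without (8.60%). In mitotic cells the figures were 342 of 783 (43.7%) and 744 of 3751 (19.8%). Of the shared peaks, 563 of 886 cycling (63.5%) but 342 of 1086 mitotic ones (31.5%) overlapped IgG of the same cells. Where none of the 4 IgG lists had a peak, 59 of 2787 cycling peaks (2.12%) and 77 of 1778 mitotic peaks (4.33%) were shared. The mitotic IgG library had 2066373 kept tags and 2373 peaks against 14761560 and 15758 in cycling cells, so shares with IgG rest on lists of unlike length. The smallest IgG peak had 2.90 CPM in mitotic and 0.813 CPM in cycling cells. No called mitotic IgG peak therefore equals the level of a mitotic HSF1 peak under 2.90 CPM. Heated cycling IgG had 14567365 kept tags and 4377 peaks, and the part of depth in these lengths was not tested.

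The 3 strongest shared peaks with IgG lay at chr1:563929-570800, chr5:134258624-134264717 and chr10:42596536-42602517. The peaks on chromosomes 1 and 5 are known nuclear copies of mitochondrial DNA. They had 576 and 354 CPM in cycling HSF1, 1318 and 815 CPM in mitotic HSF1, and 2263 and 1423 CPM in mitotic IgG. At both, IgG exceeded HSF1 in each cell state.

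Pairing each of the 886 shared cycling peaks with the overlapping mitotic peak of nearest summit gave a median CPM ratio, mitotic over cycling, of 0.93 with quartiles of 0.52 and 1.54. CPM was over 2 times higher in mitotic cells in 106 pairs (12%) and over 2 times higher in cycling cells in 212 (23.9%). The interval of the ratio lay above 1 in 168 pairs, below 1 in 246 and included 1 in 472. Cycling peaks of the pairs were longer, with a median of 1401 bp against 752 bp, and per kilobase of peak the median ratio was 1.39. The direction of the median therefore changed with the scale. In the 235 pairs free of IgG in both states the ratio was 0.86, in the 224 with IgG in both it was 1.46, and in the 339 with IgG in cycling cells alone it was 0.67.

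**Figure D3:**
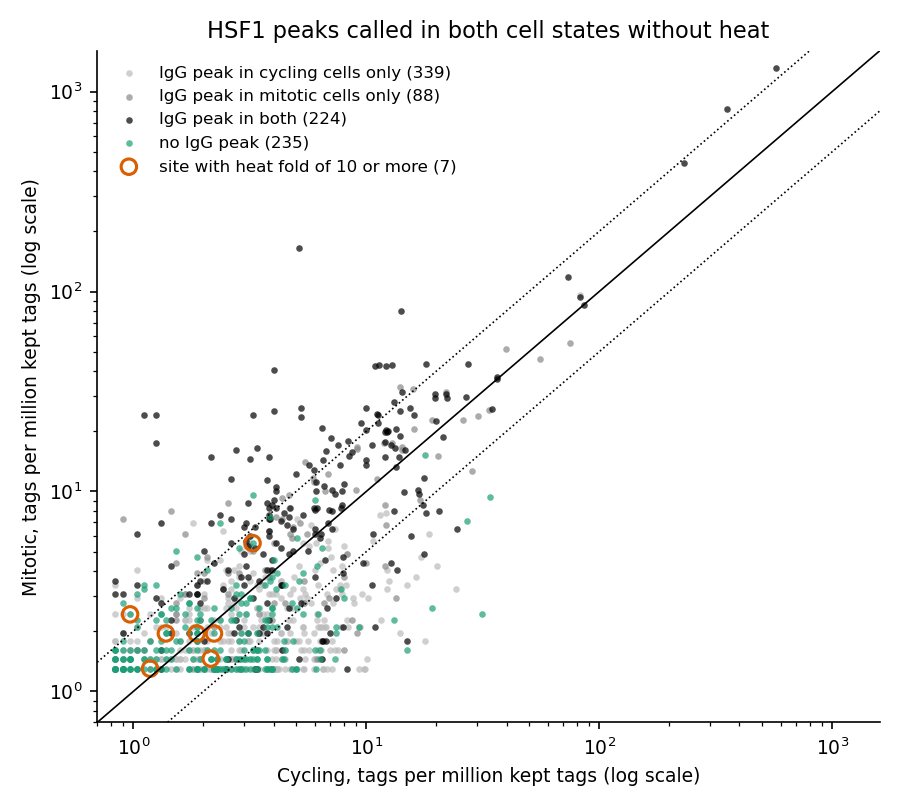
Mitotic against cycling HSF1 tags per 1000000 kept tags (both log scale) for the 886 pairs, coloured by IgG peaks of the same cells, with the line of equal level (solid) and of 2-fold difference (dotted). Rings mark the 7 sites of heat fold of at least 10. The rings sit among weak peaks, from 0.969 to 5.52 CPM, and the 3 strongest pairs, up to 1318 CPM, all have IgG peaks in both states.

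Summits of paired peaks lay a median of 217 bp apart, and 308 of 886 (34.8%) lay within 100 bp. The median was 275 bp in the 235 pairs free of IgG, of which 66 lay within 100 bp. Pairs with IgG in both states were closer, with a median of 121 bp, and 104 of 224 lay within 100 bp. At the 7 heat sites the median was 83.0 bp, and 5 lay within 100 bp. Peak length differed between these classes, with cycling medians of 1141 bp in pairs free of IgG and 884 bp at the heat sites, and its part in the distances was not tested.

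**Figure D4:**
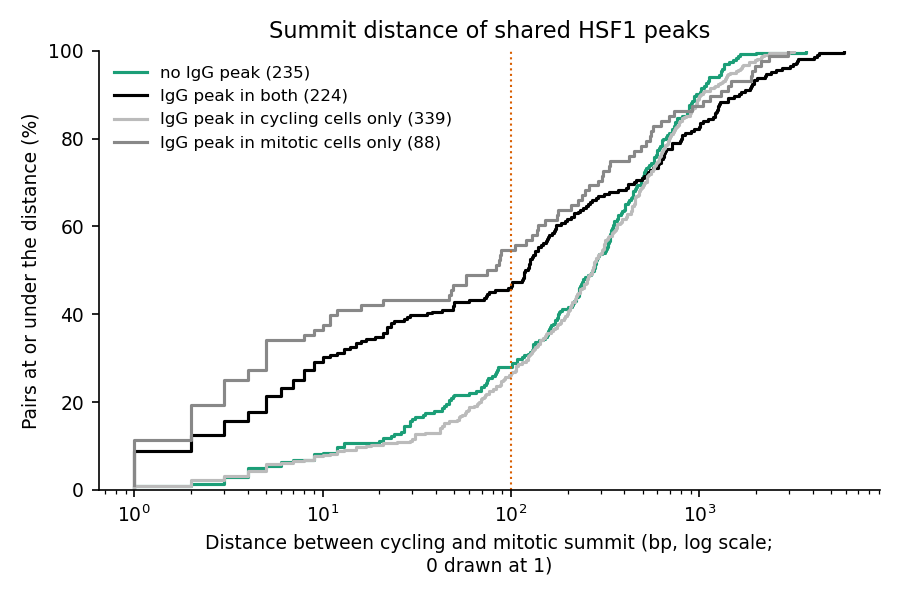
Cumulative share of pairs (%) by distance between the cycling and mitotic summit (bp, log scale), by IgG peaks of the same cells, with a dotted line at 100 bp. Of pairs with IgG in both states 46.4% lie within 100 bp, against 28.1% of pairs free of IgG.

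Chromosome 22 held 469 cycling peaks (9.94%, interval 9.12 to 10.8) and 1137 mitotic peaks (25.1%, interval 23.8 to 26.4). Nearly all lay between 16 and 24 Mb, with 441 cycling and 1120 mitotic peaks, a stretch chosen after its values were seen. This stretch contains BCR, and 130 to 140 Mb of chromosome 9 contains ABL1. K562 is known for the fusion of these genes and for extra copies of the fused segments. At that stretch of chromosome 9 there were 52 cycling (1.10%) and 128 mitotic HSF1 peaks (2.82%). IgG of mitotic cells had 17.8% of its peaks on chromosome 22, heated mitotic HSF1 had 22.9%, heated mitotic IgG had 2.33% and cycling HSF2 without heat had 16.3%. The 3 mitotic lists with high shares were those with 1 tag kept per position and the fewest kept tags, and the part of these settings was not tested.

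Without peaks that overlap IgG of the same cells, chromosome 22 held 25% of the mitotic and 6.10% of the cycling list. Its shared pairs had the lowest CPM ratio of the classes described, 0.53 in 262 pairs, and a median summit distance of 364 bp. Cycling peaks of these pairs were longer, with a median of 1990 bp against 746 bp, and per kilobase the ratio was 1.31. On chromosome 22, 381 mitotic peaks overlapped a cycling peak, and each pair kept only the mitotic peak of nearest summit. On the other chromosomes, 624 of 4249 cycling peaks (14.7%) had a mitotic peak, against 262 of 469 (55.9%) on chromosome 22. Of the 235 pairs free of IgG, 77 lay on chromosome 22, and the other 158 had a median ratio of 1.08 (1.41 per kilobase). Chromosomes 1, 6 and 7 held larger shares of the cycling list, 15.8% against 12.6%, 7.04% against 4.01% and 12.4% against 8.65%. IgG of cycling cells had 17.3%, 8.57% and 12.6% of its peaks there, and IgG of mitotic cells 9.99%, 1.60% and 6.24%. The 25.1% on chromosome 22 lowers the mitotic shares of the other chromosomes.

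**Figure D5:**
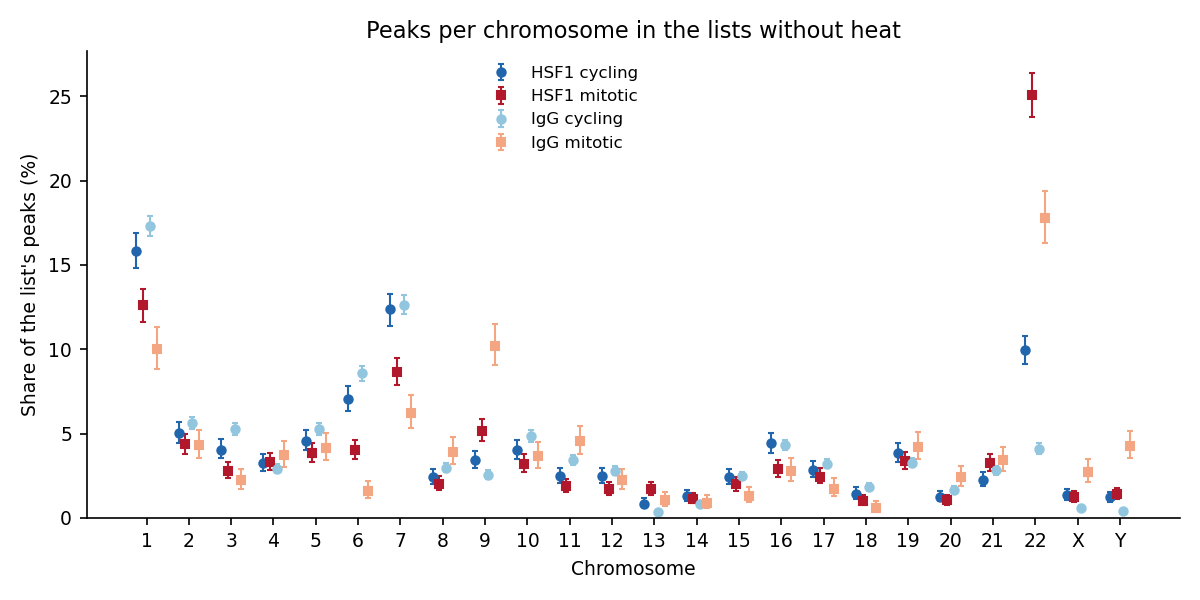
Share of each list's peaks (%) per chromosome for HSF1 and IgG of non-heated cycling and mitotic cells, with Wilson 95% intervals. Chromosome 22 stands out with 25.1% of mitotic HSF1 and 17.8% of mitotic IgG peaks, against 9.94% of cycling HSF1 and 4.11% of cycling IgG peaks.

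Peaks also gathered in few windows. The 10 fullest windows of 1 Mb held 534 cycling peaks (11.3%) and 1256 mitotic peaks (27.7%). Over 1697 windows with a peak in either list, the numbers of cycling and mitotic peaks had a Spearman correlation of 0.35, and of 0.34 without chromosome 22. The windows share mappability and copy number, so this is a description only.

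Among the cycling peaks of highest fold free of IgG of the same cells, the first, chr11:19422958-19423794, had 2.56 CPM and a fold of 11.07, and its only other peak was in heated cycling IgG. Others were chr17:80452081-80452935 (fold 9.31), chr8:32113635-32114401 (8.92, in no other list) and chr6:26286339-26287223 (7.69). At the chr17 site heated cycling HSF1 (1.43 CPM) and heated cycling IgG (0.961 CPM) also had peaks. Over the 47 cycling peaks with a fold of at least 5, 10 (21.3%) had a mitotic peak, close to the 18.8% of the whole list.

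The mitotic peaks of highest fold, free of IgG of the same cells, were HSPA1B, chrX:125714637-125715389 (fold 4.23, 3.24 CPM), chr2:10675905-10676608 (3.87), HSPD1 with HSPE1 (3.52) and chr2:117769865-117770323 (3.28). At chr2:10675905-10676608 the only other peak was in heated cycling IgG (0.892 CPM). The X site and chr2:117769865-117770323 also had peaks in heated mitotic IgG, at 3.00 and 1.56 CPM against 3.24 and 1.78 CPM in mitotic HSF1. Their folds in that IgG list, 11.97 and 8.80, are on another scale. Input had 2.13 times the tags of that library, against 6.22 times those of mitotic HSF1. HSPA1B and HSPD1 with HSPE1 were the 2 of these 5 with a cycling peak. Both other mitotic peaks with a fold of at least 5, at chr17:31149067-31150057 (6.47) and chr2:33141156-33141745 (6.71), had peaks in all 4 IgG lists.

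Ranked by tags, other regions led. The highest cycling levels free of IgG of the same cells were at chr6:58773085-58780328 (394 CPM, fold 0.95), chr18:18510739-18520776 (339 CPM), chr16:33949979-33961642 (150 CPM), chrY:10020366-10030282 (101 CPM) and chr21:9694749-9702646 (92.2 CPM). All 5 lie by centromeres and all 5 had a peak in mitotic IgG. The highest mitotic levels free of IgG of the same cells were at chr17:25262876-25268144 (95.7 CPM), chr22:23141896-23146823 (18.3 CPM), chr22:23197041-23200712 (15.2 CPM), chr9:133893460-133897852 (14.8 CPM) and chr8:86832657-86836788 (14.1 CPM). Folds of these 5 ran from 0.49 to 0.67. Cycling IgG without heat had peaks at the chr17 site (95.7 CPM), at chr22:23141896-23146823 (19.4 CPM) and at the chr8 site (16.9 CPM). Heated mitotic IgG had 75.6 CPM at the chr8 site, over a wider interval. The chr9 site and chr22:23197041-23200712 had no peak in the 4 IgG lists. The 10 shared regions of highest level whose 2 paired peaks overlapped no IgG peak of the same cells included 4 on chromosome 22. Of these 4, chr22:23413130-23423902 held mitotic IgG peaks elsewhere in the cycling interval (27.1 CPM). Among the 10, all but chr22:23197036-23202757 and chr8:86792865-86801289 had a peak in at least 1 of the 4 IgG lists. Folds of the 10 ran from 0.90 to 2.16 in cycling and from 0.38 to 1.14 in mitotic cells.

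Few peaks recurred in many of the other HSF libraries without an IgG peak. No other list had a peak at 2364 cycling peaks (50.1%) and 1393 mitotic ones (30.7%). Another HSF list had a peak at 1855 cycling (39.3%) and 2709 mitotic peaks (59.7%). The single list shared most often was heated mitotic IgG in both cases, at 29.0% and 45.8%, and this list is also the longest, with 41184 peaks. Heated cycling HSF1 shared 769 cycling peaks (16.3%), and heated mitotic HSF1 shared 1704 mitotic peaks (37.6%). Heated cycling IgG shared 893 cycling peaks (18.9%), from 4377 peaks against 6447 in heated cycling HSF1.

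All 4 HSF1 lists had a peak at 375 cycling members (7.95%), and 366 of these had an IgG peak in at least 1 list. The 9 without IgG included HSPD1 with HSPE1, HSPA8 and TCP1. They also included chr22:22031380-22034288 (88 tags, fold 1.45) and chr16:32110774-32111611 (21 tags, fold 1.37). No HSF2 peak lay at 4 of the 9, among them chr1:180991967-180992692 (27 tags, 1.87 CPM, fold 6.52), chr7:102191235-102192027 (18 tags, 1.25 CPM) and chr8:142212727-142213845 (32 tags, 2.22 CPM, fold 4.27). In the mitotic list 403 members (8.89%) were in all 4 HSF1 lists and 10 had no IgG. Folds below 1 were found among these 10 at chr22:22298036-22298747 (0.69), chr22:22300031-22301112 (0.98), chr22:22301124-22301961 (0.65) and chr16:32110679-32111185 (0.82). At the chromosome 1 position and the chromosome 8 position the mitotic peaks had 8 tags each (1.30 CPM), the smallest size called. These positions were chosen after their values were seen.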

How the data were processed

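HSF1, HSF2, IgG and input chromatin of K562 cells was sequenced, 14 samples with 1 library per group, and 12 peak lists were used. The submitters' processing notes name Bowtie, MACS 1.4 and hg19. MACS 1.4.1 and its p cutoff of 1e-05 are per the file headers, where the alignment name carries bwa for cycling HSF1 but not for mitotic HSF1. Tags are deposited counts per peak. The deposited score of a peak is 10 times the negative log10 of its p-value, its fold is a deposited ratio to input, and the FDR is a deposited percent. Kept tags per library come from the file headers.

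Peaks were paired by 1 bp overlap. CPM is tags per 1000000 kept tags. Peaks overlapping IgG of the same non-heated cells were set apart. Chromosome names of non-heated cycling IgG were mapped in order to 1 to 22, X and Y, which gave 964 overlaps with cycling HSF1 against at most 56 under 23 shifted orders. Intervals are Wilson (shares), exact Poisson (CPM) and exact conditional binomial (ratios of tags). Overlaps were compared with bedtools 2.31.1 in 24 pairs of lists and differed in 0, and the steps were tested on simulated data. Python 3.11.15, pandas 2.3.3, scipy 1.17.1 and matplotlib 3.10.9 were used.

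Named sites are the 5 peaks of highest fold and the 5 of highest CPM per list without IgG of the same cells, the shared regions of highest lower CPM (10 without and 3 with IgG), and sites of heated cycling HSF1. Members and lists were chosen with earlier results of these data known. The heat sites with a fold of at least 10, bands of CPM and fold and the chromosome stretches were chosen after the values were seen. Alternatives covered what counts as shared, score, FDR and fold minimums, lists of equal length, IgG handling and scaling. Of the 7 heat sites with peaks in both states, 1 is not reported here, nor is its peak among those of highest fold. Peaks were not joined to genes, since no hg19 annotation was used here.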

Additional observations from a re-analysis of the deposited data

How the results depend on the processing

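Of 45 alternatives, 7 left the value within its interval or set range, 36 moved it and 2 turned its direction. The share of cycling peaks with a mitotic peak (18.8%) was 9.50% at 50% reciprocal overlap, 10.1% and 6.53% with summits within 250 and 100 bp, 34.2% at a score of at least 100 in both lists, 14.1% at an FDR of at most 5%, 2.13% at a fold of at least 5, 20.7% in the 1000 peaks of highest score, and 6.45% with IgG-overlapping peaks removed. Chosen after seeing the data, it was 14.7% without chromosome 22 and 53.6% at the lowest mitotic CPM or more. The share of mitotic peaks with a cycling peak (24.0%) was 9.88%, 10.5%, 6.79%, 12.4%, 8.70%, 33.3% (of 3 peaks), 22.5% and 7.49% under the same planned settings, and 20.8% without chromosome 22.

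The share of cycling peaks with IgG (20.4%) was 13.9% at 50% reciprocal overlap, 10.2% with summits within 250 bp, 40% at a score of at least 100 and 40.9% with any of 4 IgG lists. For mitotic peaks (17.3%) it was 8.67%, 10.4% and 60.8% at reciprocal overlap, summits and any IgG list. Shared regions free of IgG (235) were 98 at reciprocal overlap, 114 with summits within 250 bp, 49 at a score of at least 100 and 57 with any IgG list. The median CPM ratio of pairs (0.933) was 0.619 per 1000000 total tags and turned to 1.39 per kilobase. At the 6 strongest heat sites with both peaks it turned from 1.25 to 0.832 per 1000000 total tags, and was 1.4 per kilobase, which was chosen after seeing the data. The share in any other HSF list was 27.6% for cycling peaks, both with summits within 250 bp and without IgG, and 34.5% and 53.3% for mitotic peaks. The cycling share on chromosome 22 was 6.10% without IgG.

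No paired analysis was possible because each group holds 1 library and the labels give no replicate numbers. The smallest mitotic peak had 8 tags, so no called mitotic peak equals the level of a cycling peak under 1.30 CPM. Of the cycling peaks under that level, 104 overlapped a mitotic peak all the same. Cell state goes with depth, the duplicate setting and the alignment name, and these cannot be told apart here.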
